A study of Arabidopsis thaliana with 24 samples.

Results

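Wall-associated kinases (WAKs) and WAK-like kinases (WAKLs) of *Arabidopsis thaliana* were followed through 10 genes chosen by their gene identifiers, out of 37813 genes in the deposited table. They were *WAK1* (AT1G21250), *WAK2* (AT1G21270), *WAK3* (AT1G21240), *WAK4* (AT1G21210), *WAK5* (AT1G21230), *WAKL1* (AT1G16120), *WAKL2* (AT1G16130), *WAKL4* (AT1G16150), *WAKL8* (AT1G16260), and *WAKL10* (AT1G79680). Their transcripts were measured by mRNA sequencing (RNA-Seq) of whole rosettes from 4 genotypes, which were the wild type and the phototropin mutants *phot1*, *phot2*, and *phot1phot2*. Each genotype was sampled non-treated or 30 min after a UV-C dose of 100 mJ cm−2, with 3 biological replicates per group, 8 groups, and 24 libraries in all. All genotypes, the wild type included, carried the *gl1* mutation in the Columbia background, which removes leaf trichomes, so the wild type here is Col-0 *gl1*. Plants grew under an 8 h photoperiod, and each replicate pooled at least 4 rosettes. The age was 4 weeks by the sample labels and 3 weeks by the methods. Phototropins are blue light receptor kinases of the plasma membrane. The design asks how their loss and a UV-C exposure change transcript levels.

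WAKs are receptor-like kinases that span the plasma membrane. Their outer part carries epidermal growth factor-like repeats and binds pectin and its fragments, the oligogalacturonides, which are released when the cell wall is damaged, and their inner part is a serine/threonine kinase. WAK1 is known as a receptor of oligogalacturonides whose gene responds to wounding, pathogens, and salicylic acid, WAK2 is known for cell expansion and pectin-dependent activation of the kinase MPK3, and WAK4 for cell elongation. Among the related WAKL proteins, WAKL4 is known for responses to mineral ions, and WAKL10 for a guanylyl cyclase activity beside the kinase.

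All 10 genes lie on chromosome 1 (coordinates of the deposited table, equal to those of RefSeq TAIR10.1). *WAK4*, *WAK5*, *WAK3*, *WAK1*, and *WAK2* stand in this order on the + strand within 24.8 kb, from 7423704 to 7448483. *WAKL1*, *WAKL2*, and *WAKL4* stand on the + strand within 12.5 kb, from 5522602 to 5535060. *WAKL8* lies at 5559498 to 5562192 and *WAKL10* at 29979973 to 29982819, both on the − strand. RefSeq describes AT1G16260 as a wall-associated kinase family protein without a symbol, and the name *WAKL8* is the one given with the identifier. The annotated spans of *WAKL1* and *WAKL2* overlap by 160 bases on the same strand. The span of *WAK2* overlaps that of AT1G21280 on the other strand by 994 bases, and *WAKL8* overlaps AT1G16250 by 23 bases. Reads were counted without regard to strand, so reads of *WAK2* and *WAKL8* cannot be told apart there from reads of the gene opposite. Whether reads in these overlaps entered the count of either gene was not checked. Reads matching several places were not counted. Of the stretches of 75 bases in the exons, 87.5% occurred once in the genome for *WAK3*, which shares 220 of them with AT1G21245, 95.2% for *WAKL1*, which shares 119 with *WAKL3* (AT1G16140), 95.9% for *WAK1*, 98.2% for *WAK2*, and 100.0% for the other 6 genes. The counts of *WAK3* and *WAKL1* are therefore uncertain to that extent.

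The 300 bases before the annotated start (RefSeq TAIR10.1) were searched for the W box, the letters TTGACC or TTGACT on either strand, which WRKY transcription factors bind, because several of the genes responded together to UV-C. The windows of *WAKL1*, *WAKL4*, *WAKL10*, and *WAK1* are shown as examples, and *WAK1* was not called after UV-C. The window of *WAKL2*, which was also called higher after UV-C, holds no W box and is not printed. Each window shown is printed on the strand of its gene, with W boxes in capitals and the other bases in lower case.
*WAKL1* chr1:5522302-5522601 (+): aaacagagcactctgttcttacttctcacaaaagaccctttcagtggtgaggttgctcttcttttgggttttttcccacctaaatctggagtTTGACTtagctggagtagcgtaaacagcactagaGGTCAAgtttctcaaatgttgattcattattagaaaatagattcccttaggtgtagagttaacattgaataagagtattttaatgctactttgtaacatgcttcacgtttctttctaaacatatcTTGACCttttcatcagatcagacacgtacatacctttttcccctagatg
*WAKL4* chr1:5531998-5532297 (+): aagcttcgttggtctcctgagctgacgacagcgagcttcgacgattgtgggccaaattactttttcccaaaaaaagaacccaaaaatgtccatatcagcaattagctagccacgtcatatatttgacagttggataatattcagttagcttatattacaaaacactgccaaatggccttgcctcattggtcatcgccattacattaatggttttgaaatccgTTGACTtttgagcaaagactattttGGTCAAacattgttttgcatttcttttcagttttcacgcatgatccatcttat
*WAKL10* chr1:29982820-29983119 (−): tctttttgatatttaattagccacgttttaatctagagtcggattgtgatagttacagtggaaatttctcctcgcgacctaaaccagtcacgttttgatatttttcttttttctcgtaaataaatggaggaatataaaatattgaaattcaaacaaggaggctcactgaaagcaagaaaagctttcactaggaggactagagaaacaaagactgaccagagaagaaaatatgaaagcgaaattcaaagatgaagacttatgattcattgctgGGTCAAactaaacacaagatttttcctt
*WAK1* chr1:7438871-7439170 (+): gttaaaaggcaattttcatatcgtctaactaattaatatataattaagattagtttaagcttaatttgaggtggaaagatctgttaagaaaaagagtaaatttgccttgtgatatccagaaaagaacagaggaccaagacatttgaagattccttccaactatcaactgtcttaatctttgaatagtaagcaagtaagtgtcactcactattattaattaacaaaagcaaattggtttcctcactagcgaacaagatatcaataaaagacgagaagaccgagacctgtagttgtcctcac
The window of *WAKL1* holds 3 W boxes, that of *WAKL4* holds 2, and those of *WAKL10*, *WAK2*, and *WAK4* hold 1 each, while those of *WAK1*, *WAK3*, *WAK5*, *WAKL2*, and *WAKL8* have no match in these 300 bases. The window of *WAKL2* lies inside *WAKL1*. Of 27438 protein-coding genes with such a window, 32.3% hold at least 1 W box. The letters TGACG, the core bound by TGA transcription factors, occur 2 times in the windows of *WAKL4* and *WAK2* and 1 time in that of *WAK3*, and 21.3% of all windows hold them. Such matches describe letters and were not tested as binding sites.

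Non-treated libraries held 33200727 to 41902444 counted reads and treated ones 20897905 to 28723145, so depth was lower in every treated library. The tested genes held 99.2 to 99.4% of the reads without treatment and 87.9 to 92.4% after UV-C. Rosette markers were high in every library, while the root hair markers *EXPA7* and *EXPA18* and the pollen marker *VGD1* had 0 reads in all 24. The summed level of the mesophyll markers *RBCS1A*, *LHCB1.3*, and *RCA* was 44925 to 53806 CPM (reads relative to the library's reads in tested genes, after TMM scaling between libraries) without treatment and 59655 to 85121 CPM after UV-C, and the guard cell marker *MYB60* was at 12.1 to 21.4 and 6.69 to 12.3 CPM. The higher sum came from *LHCB1.3* (17790 to 24841 and 36825 to 57261 CPM), while *RBCS1A* (17058 to 20747 and 13848 to 18470 CPM) and *RCA* (9176 to 11291 and 7646 to 11645 CPM) overlapped between treatments. *MYB60* was mostly lower after UV-C, and its ranges overlapped only at their ends. Depth, *LHCB1.3*, and *MYB60* thus moved with UV-C beside every UV-C result given here, and their part in those results was not tested. *PHOT1* was lower in *phot1* (log2 fold change (log2FC) −1.34, SE 0.08) and *PHOT2* in *phot2* (log2FC −0.71, SE 0.06) without treatment, and both were lower in *phot1phot2*, as labelled. In rosette RNA, fewer cells of a type and less RNA per cell cannot be told apart.

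Compared per kilobase of exon, *WAKL8* had the highest level of the 10 genes in the non-treated wild type, at 11.8 ± 0.45 CPM per kb (SD, n = 3). *WAK2* at 6.38 ± 1.29 and *WAK1* at 5.88 ± 0.68 CPM per kb followed and did not differ beyond their spread. *WAKL2* came next at 1.34 ± 0.39 CPM per kb. Below it, *WAK4* at 0.197 ± 0.027, *WAKL10* at 0.172 ± 0.080, and *WAK3* at 0.140 ± 0.022 CPM per kb lay within about 1 SD of their neighbours. *WAKL1* at 0.071 ± 0.009 and *WAKL4* at 0.054 ± 0.063 CPM per kb were lowest among the genes with reads and did not differ beyond their spread. Over the 24 libraries, *WAKL8* held 36.0%, *WAK1* 27.8%, and *WAK2* 24.1% of the reads of the 10 genes.

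*WAK5* had 0 reads in each of the 24 libraries. All of its stretches of 75 bases are unique in the genome. A count of 0 allows up to 3 reads, which is 0.067 to 0.165 CPM per library, and this limit covers counting error only. A gene entered the tests with 5 or more reads in 6 or more libraries, and 9 of the 10 did, all but *WAK5*. Among the genes tested, *WAK3* varied most between replicates, with a biological coefficient of variation of 0.509 against 0.087 for the common value of all tested genes. *WAKL8* varied least, at 0.076.

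At 30 min after UV-C *WAKL1* had risen in all 4 genotypes, *WAKL2* and *WAKL4* in 3 genotypes each, and *WAKL10* in 2, whereas *WAK1* to *WAK4* and *WAKL8* were not called in any. The rise of *WAKL1* was the largest of the 9 tested genes in each genotype, 22.2-fold in the wild type. A gene was called when edgeR's quasi-likelihood test gave a Benjamini-Hochberg adjusted p under 0.01 over 20094 tested genes and an absolute log2FC over 1. By this rule 3 of 9 tested genes rose in the wild type (6.88% of all genes tested were called higher), 2 in *phot1* (6.37%), 3 in *phot2* (7.9%), and 4 in *phot1phot2* (7.2%). None fell, where 2.35%, 2.09%, 2.34%, and 3.55% of all tested genes did in the same order. At an unadjusted p under 0.05 the counts in either direction were 7, 5, 6, and 6 of 9. The 7 of the wild type include *WAK2*, which was lower. The share of all tested genes at this limit was not computed. This and the later counts at an unadjusted p under 0.05 are thus not set against all genes. The median log2FC of the 9 genes was 0.68, 0.37, 0.65, and 0.48 in the same order, against 0.00, 0.00, 0.01, and 0.01 over all tested genes.

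*WAKL1* had 8, 7, and 8 reads in the non-treated wild-type libraries (0.181, 0.174, and 0.217 CPM) and 95, 103, and 66 reads after UV-C (4.45, 4.80, and 3.64 CPM). In *phot1* it went from 4, 5, and 4 reads to 119, 83, and 131 reads, or from 0.098, 0.128, and 0.118 CPM to 5.63, 4.16, and 6.15 CPM. Each treated library of these genotypes lay far above each non-treated library. In *phot2* the levels were 0.270, 0.352, and 0.382 CPM before and 3.86, 2.59, and 2.77 CPM after UV-C. In *phot1phot2* they were 0.262, 0.187, and 0.221 CPM before and 3.19, 2.55, and 4.64 CPM after UV-C. Here too the groups were well apart, and the step was smallest in *phot2*. The wild type had a log2FC of 4.47 (SE 0.27, adjusted p 1.1e-11) and *phot1* one of 5.49 (SE 0.29, adjusted p 1.6e-12). The value for *phot2* was 3.19 (SE 0.25, adjusted p 1.1e-09) and for *phot1phot2* 3.93 (SE 0.27, adjusted p 7.2e-11). These calls stood under all 33 alternative settings, with log2FC between 2.99 and 5.64.

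The neighbouring *WAKL2* started from a higher level and rose less. Its levels in the wild type were 3.35, 4.90, and 2.82 CPM without treatment and 9.50, 8.91, and 9.31 CPM after UV-C. This was a log2FC of 1.32 (SE 0.21, adjusted p 1.9e-05). The levels of *phot1* went from 4.02, 5.21, and 5.29 CPM to 11.4, 9.28, and 10.4 CPM, with a log2FC of 1.10 (SE 0.20, adjusted p 0.000126). In *phot1phot2* they went from 3.31, 3.31, and 4.87 CPM to 9.57, 8.30, and 11 CPM, with a log2FC of 1.33 (SE 0.21, adjusted p 1.3e-05). The treated libraries of these genotypes all lay above their non-treated libraries. In *phot2*, with 4.63, 4.62, and 7.88 CPM before and 9.42, 8.21, and 9.56 CPM after UV-C, the log2FC of 0.67 (SE 0.20) had an adjusted p of 0.00786 but stayed under the limit on size. The non-treated *phot2* library of replicate 3 stood above the other non-treated libraries. In *phot1* the log2FC of *WAKL2* fell under the limit of 1 without non-treated *phot1* replicate 1 (0.98, adjusted p 0.00147) and with library totals in place of TMM (0.97, adjusted p 0.000468).

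*WAKL4* had 3, 1, and 12 reads (0.068, 0.025, and 0.325 CPM) in the non-treated wild type and 13, 17, and 10 reads (0.609, 0.793, and 0.551 CPM) after UV-C. The groups did not overlap, although replicate 3 held most of the non-treated reads. The log2FC was 2.26 (SE 0.52, adjusted p 0.00113), and it was not called when only these groups entered the fit (2.26, adjusted p 0.0166). Without replicate 3 of the non-treated group it was 3.68 (adjusted p 2e-05). In *phot2* the levels went from 0.765, 0.704, and 1.25 CPM to 3.44, 2.94, and 2.01 CPM, with a log2FC of 1.62 (SE 0.34, adjusted p 0.00039). In *phot1phot2* they went from 0.341, 0.213, and 0.344 CPM to 1.3, 0.800, and 1.13 CPM, with a log2FC of 1.83 (SE 0.42, adjusted p 0.000953). Every treated library was above the non-treated ones, and both calls stood under all 33 alternatives. In *phot1*, from 0.245, 0.332, and 0.470 CPM to 0.709, 0.902, and 0.611 CPM, the log2FC of 1.09 (SE 0.44) missed the limit at an adjusted p of 0.0475.

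*WAKL10* levels in *phot2* were 0.945, 0.798, and 2.07 CPM without treatment and 6.30, 2.79, and 2.6 CPM after UV-C. Replicate 1 of the treated group stood well above the other libraries. The log2FC was 1.61 (SE 0.38, adjusted p 0.00112), and it fell to 1.09 (adjusted p 0.0223) without that library and was 1.61 (adjusted p 0.0109) when only these groups were fitted. In *phot1phot2* the levels were 0.918, 0.507, and 0.861 CPM before and 1.88, 1.90, and 2.21 CPM after UV-C, with a log2FC of 1.39 (SE 0.42, adjusted p 0.00772). That call was lost without any 1 of the 6 libraries, with log2FC from 1.17 to 1.54 and adjusted p from 0.0114 to 0.039, with library totals in place of TMM (1.14, adjusted p 0.0224), and with the replicate number as a block (1.39, adjusted p 0.0105). In the wild type, from 0.498, 0.621, and 0.217 CPM to 1.03, 0.886, and 1.16 CPM, the difference was a log2FC of 1.17 (SE 0.49, adjusted p 0.0508). For *phot1*, from 0.343, 0.842, and 0.646 CPM to 1.37, 2.26, and 1.13 CPM, it was 1.37 (SE 0.44, adjusted p 0.0144). Neither reached the limit, although treated and non-treated libraries did not overlap. The value in *phot1* was called without non-treated *phot2* replicate 3 (adjusted p 0.00753) or treated *phot2* replicate 1 (adjusted p 0.00707), which enter only the shared estimate of spread, and by the likelihood ratio test and DESeq2.

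**Figure D1:**
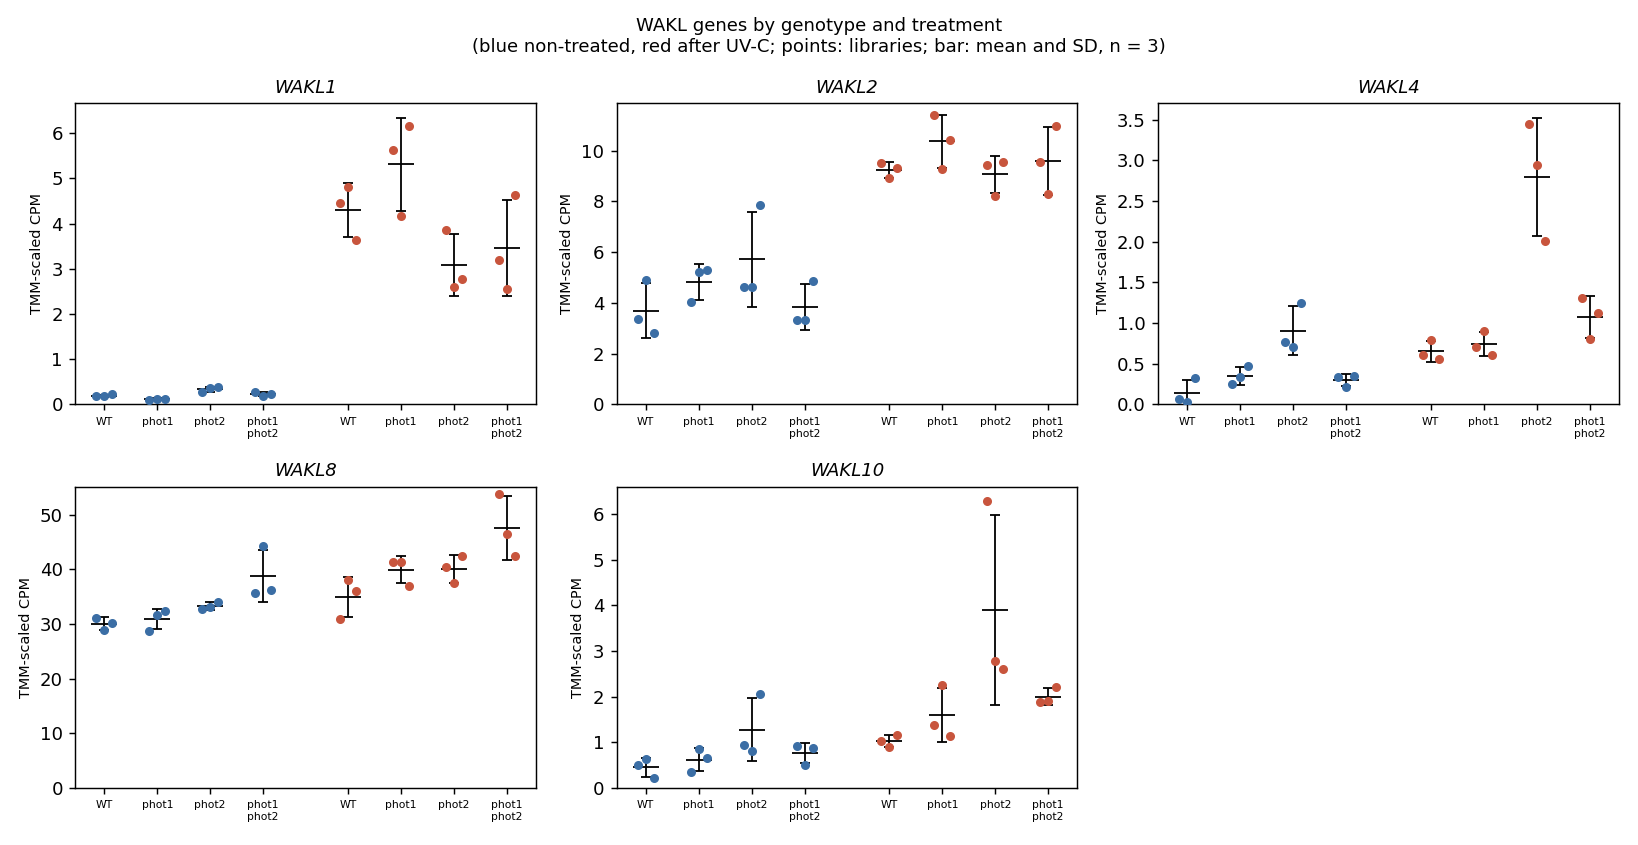
Levels of the 5 *WAKL* genes in each library (vertical axis, TMM-scaled CPM) by genotype, non-treated in blue and after UV-C in red, with the mean and SD of 3 libraries as bars. *WAKL1* lay at 0.098 to 0.382 CPM without treatment and at 2.55 to 6.15 CPM after UV-C, and *WAKL4* reached 2.01 to 3.44 CPM in treated *phot2*.

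The other tested genes were not called. *WAKL8*, the most abundant one, reached in *phot1* a small log2FC of 0.37 (SE 0.09, adjusted p 0.00209). It was 0.30 (SE 0.09, adjusted p 0.0079) in *phot1phot2*, both under the limit on size, and 0.22 and 0.27 in the wild type and *phot2* (adjusted p 0.0528 and 0.0168). *WAK1*, the oligogalacturonide receptor, had log2FC of 0.25 to 0.57 and adjusted p of 0.0428 to 0.370. *WAK2* in the wild type had a log2FC of −0.48 (SE 0.17, adjusted p 0.0208), where the levels were 23.2, 27.3, and 18.1 CPM before and 14.5, 17.9, and 16.9 CPM after UV-C, and between −0.32 and 0.12 in the mutants. *WAK4* stayed between 0.294 and 1.38 CPM in the 24 libraries. The log2FC of *WAK3* ranged from −1.03 to 0.68 and that of *WAK4* from −0.03 to 0.65, with adjusted p of at least 0.147. For *WAK3* the 95% interval in *phot1* ran from −2.31 to 0.25, a range of more than 2 log2 units.

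**Figure D2:**
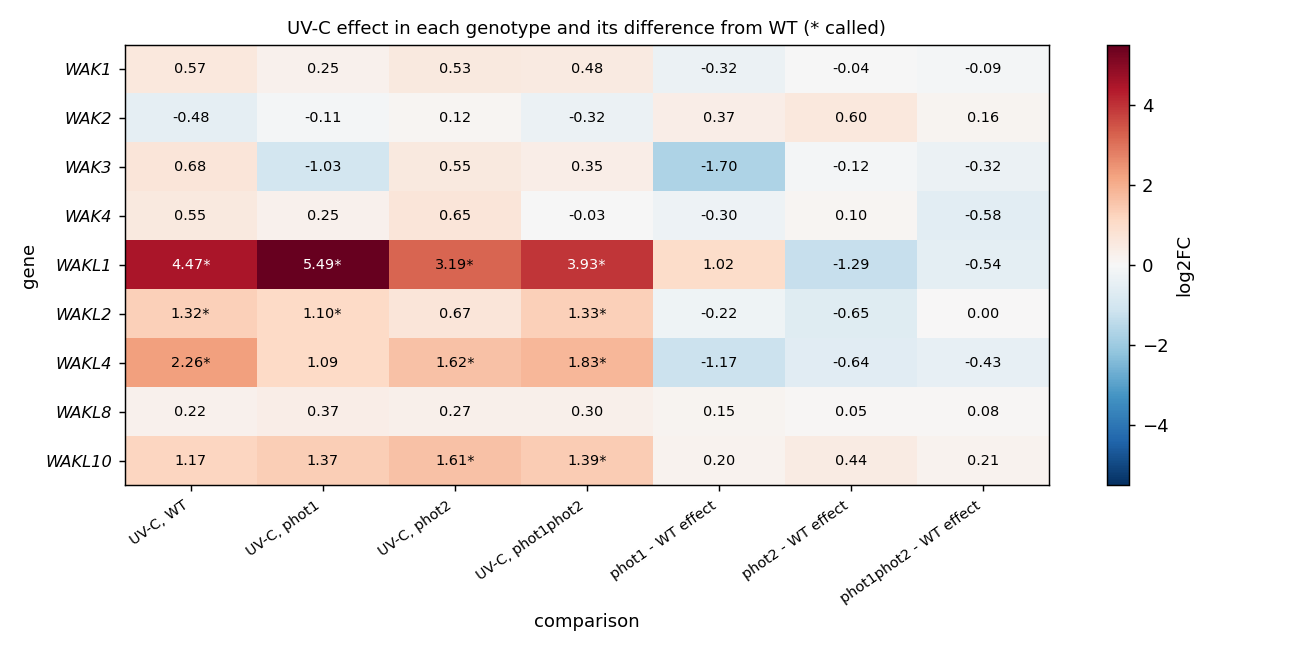
The log2FC (colour and number) of the 9 tested genes after UV-C in each genotype, in the 4 columns on the left, and how far that effect in each mutant lay from the wild-type effect, in the 3 columns on the right, with called values starred. *WAKL1* had the darkest cells in all genotypes (3.19 to 5.49), and no difference of effects was called.

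An interaction term tested whether UV-C acted differently in a mutant. No member was called for *phot1* (0.00498% of all genes tested were called), *phot2* (0.368%), or *phot1phot2* (1.52%), neither by the quasi-likelihood test nor by DESeq2 or the likelihood ratio test. At an unadjusted p under 0.05 the quasi-likelihood test counted 1, 3, and 0 of 9 genes. The UV-C effect on *WAKL1* in *phot2* was lower by a log2FC difference of −1.29 (SE 0.40, 95% interval −2.08 to −0.50, adjusted p 0.0985), and that in *phot1* was higher by 1.02 (SE 0.48, 95% interval 0.08 to 1.96, adjusted p 0.663). For *WAKL4* the differences were −1.17, −0.64, and −0.43 in *phot1*, *phot2*, and *phot1phot2*, with adjusted p of 0.724 to 0.804, and for *WAK3* in *phot1* it was −1.70 (SE 1.12, adjusted p 0.85). These comparisons share the wild-type libraries.

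Against the wild type, *phot2* had higher levels of *WAK1* and *WAKL4* under both conditions and of *WAKL10* after UV-C. Under non-stress conditions 2 of 9 tested genes were called higher in *phot2* than in the wild type (0.746% of all genes tested were called higher), and after UV-C 3 of 9 were (1.8%). None of the 9 was called lower, a count without a comparison, since the share of all tested genes called lower was not computed here. The median log2FC of the 9 genes was 0.80 and 0.78, against −0.01 and 0.00 over all tested genes.

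*WAK1* was at 17.8, 16.9, and 14.2 CPM in the non-treated wild type and at 26.3, 29.8, and 47.7 CPM in non-treated *phot2*. The groups did not overlap, and *phot2* replicate 3 stood above the rest. The log2FC was 1.08 (SE 0.22, adjusted p 0.00443, 2.12-fold). After UV-C the levels were 22.2, 22.2, and 28.3 CPM in the wild type and 54.3, 41.2, and 54.3 CPM in *phot2*, again apart, with a log2FC of 1.05 (SE 0.23, adjusted p 0.00262, 2.07-fold). Both calls depended on individual libraries. Without treatment the call was lost without *phot2* replicate 3 (0.78, adjusted p 0.0531), without wild-type replicate 1, 2, or 3 (1.15, 1.11, and 1.00, adjusted p 0.0135, 0.0178, and 0.0271), when only these groups were fitted (1.09, adjusted p 0.031), and by the likelihood ratio test (0.93). After UV-C it was lost without wild-type replicate 1 or 2 (both 0.99, adjusted p 0.0165 and 0.0159) or *phot2* replicate 1 or 3 (both 0.98, adjusted p 0.0128 and 0.0127).

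*WAKL4* had 34, 30, and 49 reads in non-treated *phot2*, with each library above the wild-type values given above. Its log2FC was 2.72 (SE 0.46, adjusted p 0.00106). The call was lost without wild-type replicate 1 (2.38, adjusted p 0.0108) and when only these groups were fitted (2.73, adjusted p 0.0486). Without wild-type replicate 3, the library with most of the wild-type reads, the value was 4.14. After UV-C the reads were 65, 59, and 47 in *phot2* against 13, 17, and 10 in the wild type. The log2FC was 2.08 (SE 0.38, adjusted p 0.000713, 4.23-fold), and this call stood under all 33 alternatives, with log2FC from 1.90 to 2.28.

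*WAKL10* after UV-C was at 6.30, 2.79, and 2.6 CPM in *phot2* and at 1.03, 0.886, and 1.16 CPM in the wild type, with a log2FC of 1.92 (SE 0.42, adjusted p 0.00291). It fell short of the call without *phot2* replicate 1 (1.40, adjusted p 0.0309) or wild-type replicate 1, 2, or 3 (1.92, 1.82, and 2.01, adjusted p 0.0142, 0.0172, and 0.0106). Without treatment the log2FC was 1.48 (SE 0.44, adjusted p 0.0525). *WAK2* after UV-C was at 26.1, 27.2, and 31 CPM in *phot2* against 14.5, 17.9, and 16.9 CPM in the wild type, with a log2FC of 0.78 (SE 0.17, adjusted p 0.00305) that is under the limit on size. *WAK2* without treatment had a log2FC of 0.18 (adjusted p 0.614).

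*WAK3* showed larger but less even differences. Its levels in the non-treated wild type were 0.294, 0.398, and 0.325 CPM. They were 1.77, 3.67, and 0.735 CPM in *phot1*, 1.26, 1.01, and 4.87 CPM in *phot2*, and 1.81, 0.480, and 0.910 CPM in *phot1phot2*. All 9 mutant libraries were above the 3 wild-type ones, but replicates of a mutant differed by several fold. In that order the log2FC was 2.6 (SE 0.69, adjusted p 0.065), 2.79 (SE 0.68, adjusted p 0.0176), and 1.64 (SE 0.73, adjusted p 0.134), and none was called. After UV-C *phot2* was at 4.02, 2.39, and 3.97 CPM against 0.421, 0.560, and 0.661 CPM in the wild type, with a log2FC of 2.66 (SE 0.72, adjusted p 0.0141). After UV-C *phot1*, at 1.18, 1.6, and 0.282 CPM, and *phot1phot2*, at 0.628, 1.15, and 2.25 CPM, overlapped the wild type, with log2FC of 0.90 (SE 0.84, adjusted p 0.638) and 1.32 (SE 0.80, adjusted p 0.203). In *phot2* *WAK3* passed the limits by DESeq2 (adjusted p 0.00339 without treatment and 0.00343 after UV-C) and by the likelihood ratio test (2.23, adjusted p 0.00268, and 2.66, adjusted p 5.6e-05). It also passed without treatment when *phot2* replicate 2 was left out (3.15, adjusted p 0.00992). After UV-C it passed without non-treated *phot1* replicate 2 or 3 (adjusted p 0.00991 and 0.00976) or non-treated *phot2* replicate 3 (adjusted p 0.00428), and when only these groups were fitted (adjusted p 0.000186), with the log2FC at 2.66 in each case.

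**Figure D3:**
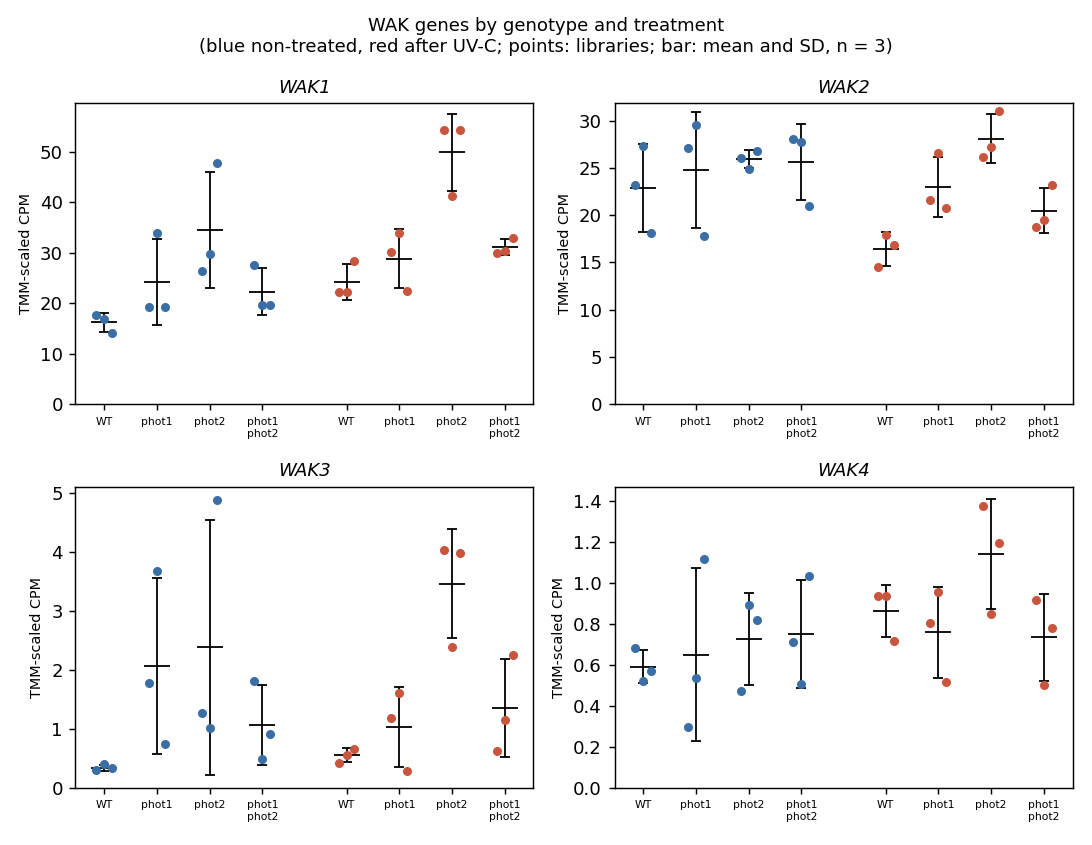
Levels of *WAK1* to *WAK4* in each library (vertical axis, TMM-scaled CPM) by genotype, non-treated in blue and after UV-C in red, with the mean and SD of 3 libraries as bars, and with *WAK5* left out because it had 0 reads. *WAK1* in *phot2* lay above the wild type under both conditions, and *WAK3* was at 0.294 to 0.398 CPM in the non-treated wild type and up to 4.87 CPM in *phot2*.

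In *phot1* and *phot1phot2* no member passed both limits against the wild type under either condition by the quasi-likelihood test, where 0.124% and 0.737% of all tested genes were called without treatment and 0.0946% and 3.2% after UV-C. At an unadjusted p under 0.05 it counted 3 and 3 of 9 genes without treatment and 1 and 2 after UV-C. The likelihood ratio test called *WAKL4* (2.13, adjusted p 0.00652) and *WAK3* (2.39, adjusted p 0.00174) in non-treated *phot1* and *WAKL4* (1.93, adjusted p 0.00603) in non-treated *phot1phot2*, and DESeq2 called 0 in these comparisons. *WAKL4* in non-treated *phot1phot2* was also called without wild-type replicate 3 (2.57, adjusted p 0.00882). Without treatment the quasi-likelihood test put *WAKL4* in *phot1* 1.34 log2 units above the wild type (SE 0.53, adjusted p 0.272). For *phot1phot2* the difference was 1.15 (SE 0.54, adjusted p 0.156), and both mutants overlapped the wild type. The paper names *WAKL4* as deregulated in *phot1*, *phot2*, and *phot1phot2* under non-stress conditions. The likelihood ratio test, the kind the paper used, called it in all of them. With no limit on the fold change, 1 member, *WAKL8*, passed in *phot1phot2* under each condition (6.35% and 24.2% of all genes tested), with a log2FC of 0.37 (SE 0.09, adjusted p 0.00834) without treatment and 0.44 (SE 0.09, adjusted p 0.000752) after UV-C. Its levels were 35.8, 44.2, and 36.3 CPM against 31.2, 28.9, and 30.2 CPM without treatment and 53.9, 46.5, and 42.5 CPM against 30.9, 38.1, and 36.0 CPM after UV-C, so neither pair of groups overlapped.

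**Figure D4:**
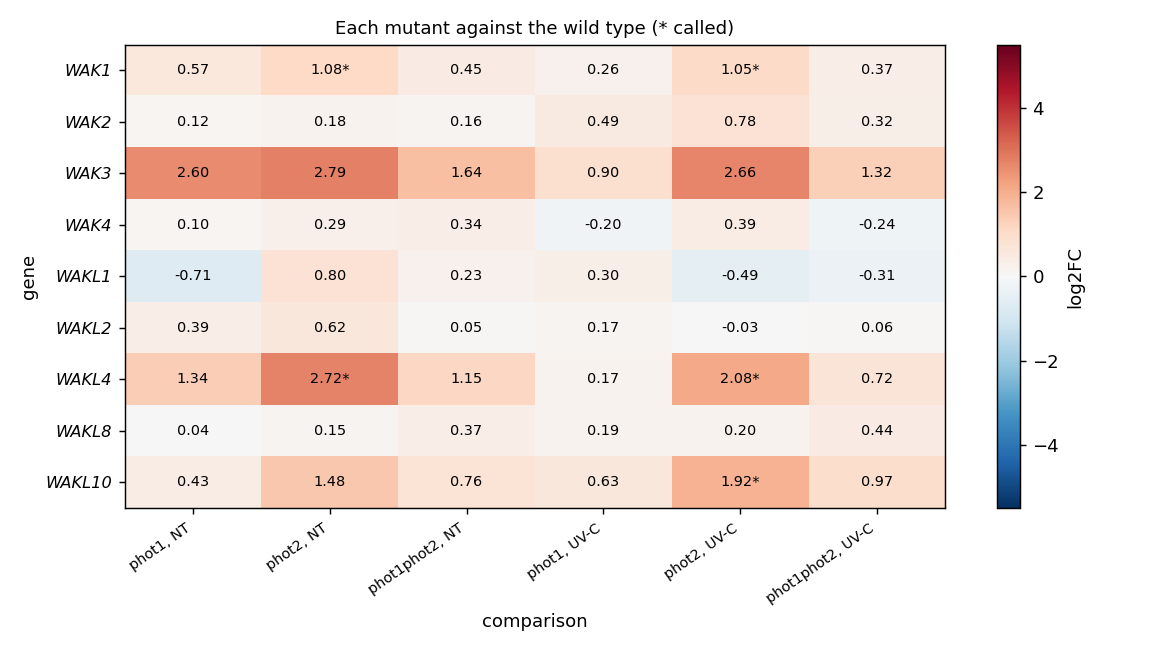
The log2FC (colour and number) of the 9 tested genes in each mutant against the wild type, non-treated (NT, 3 columns on the left) and after UV-C (3 columns on the right), with called values starred. The starred values are those of *WAK1*, *WAKL4*, and *WAKL10* in *phot2*.

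Whether *phot2* differed from the other mutants was tested directly. After UV-C *WAKL4* was higher in *phot2* than in *phot1* (1 of 9 tested genes, against 0.737% of all genes tested called higher), at 3.44, 2.94, and 2.01 CPM against 0.709, 0.902, and 0.611 CPM, with a log2FC of 1.91 (SE 0.38, adjusted p 0.00261, 3.75-fold). The call was lost without *phot1* replicate 1 or 3 (1.88 and 1.78, adjusted p 0.0134 and 0.0159) or *phot2* replicate 1 (1.73, adjusted p 0.0158). *WAKL4* was lower in *phot1phot2* than in *phot2* after UV-C (1 of 9, against 1.05% called lower), at 1.3, 0.800, and 1.13 CPM, with a log2FC of −1.36 (SE 0.36, adjusted p 0.00829). Neither pair of groups overlapped. The latter call lay close to the limit and was lost without *phot2* replicate 1 (−1.19, adjusted p 0.0413) or 2 (−1.32, adjusted p 0.0265) or *phot1phot2* replicate 1, 2, or 3 (−1.52, −1.19, and −1.39, adjusted p 0.0171, 0.0395, and 0.0265). It was also lost without any 1 of 5 libraries of other groups, which were non-treated *phot1* replicate 2, non-treated *phot2* replicate 1, treated wild-type replicates 1 and 3, and treated *phot1* replicate 1 (−1.36 in each case, adjusted p 0.01 to 0.0102).

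Without treatment no member was called between mutants by the quasi-likelihood test, where 0.159% of all tested genes were called for *phot2* against *phot1*, 0.0746% for *phot1phot2* against *phot1*, and 0.239% for *phot1phot2* against *phot2*. At an unadjusted p under 0.05 it counted 4, 2, and 4 of 9 genes. *WAKL4* had a log2FC of 1.38 (SE 0.40, adjusted p 0.0942) for *phot2* against *phot1* and −1.57 (SE 0.40, adjusted p 0.0356) for *phot1phot2* against *phot2*. The likelihood ratio test called both (adjusted p 0.00674 and 0.000748), and DESeq2 called the latter (adjusted p 0.00594), as did the quasi-likelihood test without wild-type replicate 3 (−1.57, adjusted p 0.00919). *WAKL1* had a log2FC of 1.51 (SE 0.39, adjusted p 0.0582) for *phot2* against *phot1* without treatment, at 12, 15, and 15 reads against 4, 5, and 4 reads, and −0.79 (SE 0.20, adjusted p 0.0146) after UV-C. Between *phot1phot2* and *phot1* after UV-C no member was called by any of the 3 tests (1.08% of all genes tested were called), and 2 of 9 had an unadjusted p under 0.05. *WAK1* without treatment overlapped between *phot2* and *phot1* (0.51, SE 0.22, adjusted p 0.31) and between *phot1phot2* and *phot2* (−0.63, SE 0.22, adjusted p 0.115). *WAK1* after UV-C had a log2FC of 0.79 (SE 0.22, adjusted p 0.0261) for *phot2* against *phot1* and −0.68 (SE 0.22, adjusted p 0.0287) for *phot1phot2* against *phot2*. *WAKL10* after UV-C had 1.29 (SE 0.39, adjusted p 0.0402) and −0.95 (SE 0.38, adjusted p 0.075) in the same comparisons, so neither gene was called between *phot2* and another mutant. The comparisons with *phot2* share its libraries.

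Over the 24 libraries, levels as log2(CPM + 0.5) were correlated between the tested members. These values describe the libraries, which share genotypes, treatments, and depth, and they carry no test. *WAKL1* and *WAKL2*, which neighbour each other and whose annotated spans overlap by 160 bases, had a Pearson's r of 0.91, and 0.33 once the group means were removed. *WAKL4* and *WAKL10* had an r of 0.90, and 0.44 within groups. *WAK1* and *WAK3* had an r of 0.84, which was 0.86 within groups, so the same replicates were high or low in both. Non-treated *phot2* replicate 3 and non-treated *phot1* replicate 2 were high in both genes, while treated *phot1* replicate 3 was low. *WAK1* and *WAK3* also share 53 stretches of 75 bases.

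**Figure D5:**
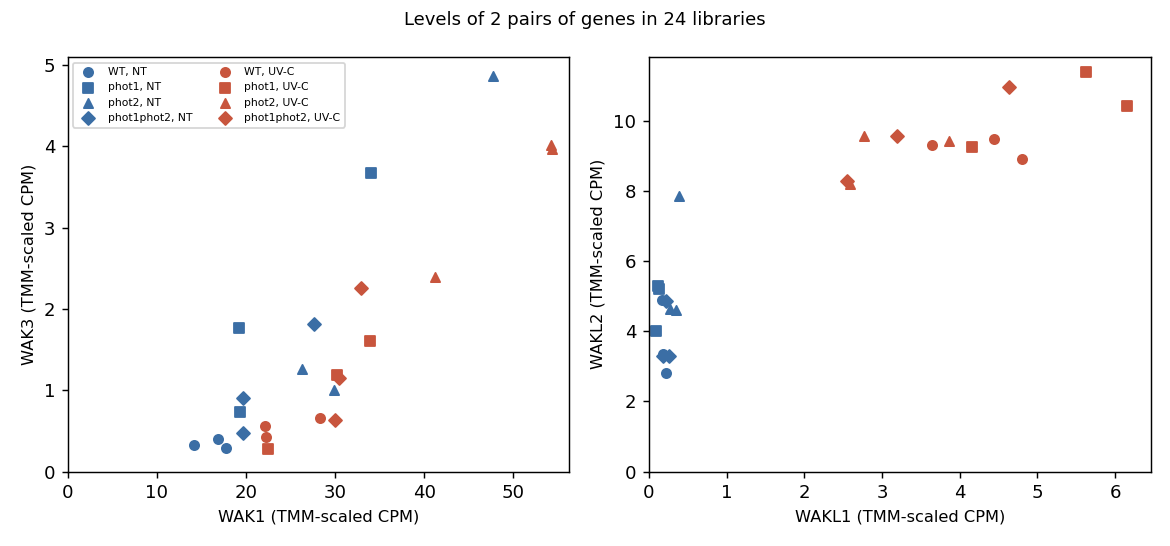
Levels (TMM-scaled CPM) of *WAK3* against *WAK1* (left) and of *WAKL2* against *WAKL1* (right) in the 24 libraries, with genotypes as symbols, non-treated in blue and after UV-C in red. *WAK1* and *WAK3* were high or low in the same replicates, whereas *WAKL1* and *WAKL2* formed separate groups by treatment.

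For each tested member, the gene outside the set with the highest r over the 24 libraries was taken. Each value is thus a maximum over all tested genes outside the set and carries no test. Group means were not removed, so genes that respond alike to UV-C or genotype have high values. For *WAKL1* it was AT5G09876 (0.99), an uncharacterized protein in RefSeq, for *WAKL2* AT5G41740 (0.97), a disease resistance protein of the TIR-NBS-LRR class, and for *WAKL4* the defensin gene *PDF1.4* (0.97). For *WAKL10* it was *GSTF6* (0.94), a glutathione transferase, for *WAKL8* *TDT* (0.95), a malate transporter of the vacuolar membrane, and for *WAK1* AT5G25260 (0.91), a membrane-associated protein of the SPFH domain family. *WAK3* was most like *CRK37* (0.90), a cysteine-rich receptor-like kinase. The highest values for *WAK2* (AT4G02220, 0.77) and *WAK4* (*TBP1*, 0.72) were lower.

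Of 14 other WAK-like genes 9 were tested. After UV-C AT4G31110 was called higher in the wild type (log2FC 1.34, SE 0.41, adjusted p 0.0087) and AT4G31100 in *phot2* (1.57, SE 0.45, adjusted p 0.00559). In *phot1phot2* *WAKL6* (AT1G16110) rose (1.22, SE 0.13, adjusted p 8.7e-08) while *WAKL7* (AT1G16090) fell (−1.01, SE 0.10, adjusted p 4.9e-08). *WAKL6* was also higher in the wild type, *phot1*, and *phot2* (0.73, 0.93, and 0.99, adjusted p 0.00013, 4.9e-06, and 1.5e-06), under the limit on size. AT4G31110 had 1.03, 1.05, and 1.38 in *phot1*, *phot2*, and *phot1phot2* (adjusted p 0.0718, 0.0533, and 0.0119). *WAKL7* had −0.48, −0.23, and −0.65 in the wild type, *phot1*, and *phot2* (adjusted p 0.000435, 0.0678, and 1.4e-05). AT4G31100 had 0.29 to 0.41 outside *phot2*. In *phot1* none was called by the 3 tests, and 4 of 9 had an unadjusted p under 0.05. Of all tested genes 6.88, 6.37, 7.9, and 7.2% were called higher in the wild type, *phot1*, *phot2*, and *phot1phot2*. In *phot1phot2* 3.55% were called lower. Their median log2FC after UV-C was −0.02, 0.15, 0.32, and −0.03 in the wild type, *phot1*, *phot2*, and *phot1phot2*. Between mutants and the wild type none of them was called by the 3 tests, with 0, 2, and 3 of 9 at an unadjusted p under 0.05 in non-treated *phot1*, *phot2*, and *phot1phot2* and 4, 5, and 5 after UV-C.

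Of 20 genes known from oligogalacturonide signalling and its response 19 were tested. After UV-C 5, 5, 6, and 5 rose in the wild type, *phot1*, *phot2*, and *phot1phot2*, where 6.88, 6.37, 7.9, and 7.2% of all tested genes were called higher. In the wild type and in *phot1* 1 fell, where 2.35 and 2.09% were called lower. *MPK3*, a mitogen-activated protein kinase downstream of pectin fragments, rose in all 4 genotypes (log2FC 2.75, 2.64, 2.16, and 2.57, SE 0.12 each), as did *WRKY40*, a transcription factor of early defence responses (4.83, 4.85, 4.07, and 4.69). *OGOX1*, an oxidase of oligogalacturonides, also rose in all 4 (1.80, 1.51, 1.54, and 1.69, SE 0.16 each), and so did *RBOHD*, an NADPH oxidase (1.71, 1.64, 1.41, and 1.42, SE 0.12 each). *PGIP2*, an inhibitor of fungal polygalacturonase, rose in the wild type (1.96), *phot2* (1.25), and *phot1phot2* (1.62, SE 0.19 each), while its value in *phot1* was 0.77 (adjusted p 0.00253). *CYP81F2*, an enzyme of indole glucosinolate metabolism, rose in *phot1* (1.06) and *phot2* (1.21, SE 0.21 each). Its values were 0.90 in the wild type (adjusted p 0.00216) and 0.59 in *phot1phot2* (adjusted p 0.0185), neither called. The gene that fell was *GRP3*, which encodes a glycine-rich protein that binds WAK1, with −1.08 in the wild type and −1.04 in *phot1* (SE 0.10 each), and its values of −0.997 in *phot2* and −0.84 in *phot1phot2* did not pass the limit on size. The rule named at most 3 of these genes per comparison, and the others were added after their values were seen. The median log2FC of the list was 0.45, 0.46, 0.64, and 0.29, against 0.00, 0.00, 0.01, and 0.01 over all tested genes. Between genotypes, *FOX1*, an oxidase of the response to oligogalacturonides, was higher in *phot2* than in the wild type after UV-C (2.87, SE 0.62, adjusted p 0.00261), and *PGIP2* was lower in *phot1* (−1.16, SE 0.19, adjusted p 0.00274). Of all tested genes 1.8% were called higher in *phot2* there, and 0.0946% were called in *phot1*. Against the wild type without treatment the quasi-likelihood test called none of the list in any mutant, with 3, 9, and 3 of 19 at an unadjusted p under 0.05 in *phot1*, *phot2*, and *phot1phot2*, 1 call by the likelihood ratio test in *phot2*, and 0 by DESeq2.

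Of 8 genes of the salicylic acid response, all tested, *WRKY70* rose after UV-C in all 4 genotypes. Its log2FC was 4.40, 3.18, 3.02, and 3.18 for the wild type, *phot1*, *phot2*, and *phot1phot2*. It was the 1 gene of the list called by the quasi-likelihood test in each, where 6.88, 6.37, 7.9, and 7.2% of all tested genes were called higher. The likelihood ratio test called 2 in *phot2*. The median log2FC of the list was 0.59, 0.60, 0.57, and 0.49, against the same medians of all genes. *WRKY70* was higher in non-treated *phot1* (1.07, SE 0.20, adjusted p 0.00696) and *phot2* (1.05, SE 0.20, adjusted p 0.00295) than in the wild type. Of all tested genes 0.124% were called in *phot1* and 0.746% called higher in *phot2*. In non-treated *phot1phot2* 1 gene of the list, not named here, was higher at an adjusted p under 0.01 but under the limit on size. The likelihood ratio test and DESeq2 each called 1 gene of the list there. The UV-C effect on *WRKY70* was smaller than in the wild type in *phot2* (−1.38, SE 0.27, adjusted p 0.00511) and *phot1phot2* (−1.22, SE 0.27, adjusted p 0.00498), where 0.368% and 1.52% of all tested genes were called. *PR2*, a pathogenesis-related glucanase, was higher in *phot2* than in the wild type after UV-C (1.84, SE 0.43, adjusted p 0.00474), where 1.8% of all tested genes were called higher.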

How the data were processed

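RNA-Seq read counts of 24 libraries in 8 groups of 3 biological replicates were used, grouped by the sample labels. The authors aligned the reads, per the submitters' processing notes, with STAR 2.5.2b and deposited whole read counts per gene from featureCounts (Subread 1.6.2) over Araport11 exons, without normalization. Their command set neither strand nor paired-end counting and left out reads with several matches. Of 37813 genes, 37517 were found in RefSeq TAIR10.1, 37469 with the same start and end.

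Tests were run in edgeR 4.0.16 and, as an alternative, DESeq2 1.42.0 (R 4.3.3, limma 3.58.1, Python 3.11.15). Of the 21366 genes with 5 or more reads in 6 or more libraries, the 20094 protein-coding ones were tested and scaled by TMM. The size of a library was the sum of its reads in these tested genes, also where library totals replaced TMM. A model of the 8 groups was fitted and tested with edgeR's quasi-likelihood test in 19 comparisons. Calls needed a Benjamini-Hochberg adjusted p under 0.01 over all tested genes and an absolute log2 fold change over 1. The SE is the absolute log2 fold change over the square root of F, and 95% intervals take the normal quantile times the SE. Replicates differed by 4.35 to 23.2 chi-square per degree of freedom, so none was a copy. Counting limits do not cover PCR copies.

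All 10 members were named. From each list of related genes, called genes were named, at most 3 per comparison. The members and lists were chosen with earlier results of these data known. Promoter windows of 300 bases and stretches of 75 bases were read from the genome. Whether the replicate numbers of the sample titles pair libraries was checked by correlating deviations from group means. The column headers of the deposited counts number many libraries otherwise, and pairing by those numbers was not checked. All 3 same-number correlations were over 0.1 in 2 of 16 comparisons of 2 groups, namely *phot1phot2* against the wild type and against *phot2*, both non-treated. Alternatives were the likelihood ratio test with estimateGLMRobustDisp of the study's methods, DESeq2, other scalings, filters, and samples, the block, no fold limit, and leaving out each library.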

Additional observations from a re-analysis of the deposited data

How the results depend on the processing

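The 19 calls of members were recomputed under 33 alternatives each, giving 627 values, of which 585 kept the call, 42 lost it, and 0 reversed. Leaving out each of the 24 libraries is among the 33, and most of those libraries lie outside the groups compared. There they act mainly through the shared estimate of spread, so many of the kept values are weak checks. Of 190 counts of called members under alternatives other than leaving out a library, 181 stayed within 1.5 times. Counts of 0 that stayed at 0 are among the 181, and most comparisons had no called member to begin with. A change from 2 to 3, as with DESeq2 in non-treated *phot2* against the wild type, also lies within that limit. The likelihood ratio test called 2 members in *phot1* against the wild type, 1 in *phot1phot2* against the wild type, 1 in *phot2* against *phot1*, and 1 in *phot1phot2* against *phot2*, all non-treated and all 0 in the quasi-likelihood test, and DESeq2 called 1 in the last of these. The shares of all tested genes given throughout are those of the quasi-likelihood test. For the likelihood ratio test and DESeq2 they were not computed, so counts of genes called by them stand without that comparison. Fitting no other groups than those compared, 0 members in place of 2 were called in non-treated *phot2* against the wild type. Without a limit on the fold change, 1 member in place of 0 was called in *phot1phot2* against the wild type under each condition, *WAKL8*. Library totals without TMM gave 1 in place of 2 in *phot1* after UV-C against non-treated. That scaling moved the median log2FC of all genes by −0.117, −0.132, −0.121, and −0.243 in the UV-C comparisons of the wild type, *phot1*, *phot2*, and *phot1phot2*, by −0.179, −0.105, and −0.179 in *phot1phot2* against the wild type, *phot1*, and *phot2* after UV-C, and by −0.126 in the interaction of *phot1phot2*. The cause of these shifts was not tested.

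Leaving out 1 library at a time gave 0 to 3 called members in non-treated *phot2* against the wild type, 0 to 1 in non-treated *phot1phot2* against the wild type, and 1 to 4 in *phot2* against the wild type after UV-C. For UV-C against non-treated it gave 3 to 3 in the wild type, 1 to 3 in *phot1*, 2 to 3 in *phot2*, and 3 to 4 in *phot1phot2*. It gave 0 to 1 for *phot1phot2* against *phot2* under both conditions and for *phot2* against *phot1* after UV-C, and 0 to 0 elsewhere.

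With the replicate number of the titles as a block, *WAKL10* after UV-C in *phot1phot2* was no longer called (log2FC 1.39, adjusted p 0.0105). This left 3 members in place of 4 there, although the title numbers did not pair those libraries. The block changed no other call. Low counts limit *WAKL4*, *WAKL1*, and *WAK4*, with as few as 1, 4, and 10 reads in a library, and treated libraries were shallower.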
